A study of Mus musculus with 24 samples.

Results

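Glutathione S-transferases join the tripeptide glutathione to reactive compounds, and the 10 genes described here encode cytosolic enzymes of 5 classes and the kappa enzyme of mitochondria and peroxisomes. They are Gsta2, Gsta3 and Gsta4 (alpha class), Gstm1, Gstm2 and Gstm5 (mu class), Gstp1 (pi class), Gstt1 (theta class), Gstk1 (kappa class) and Gsto1 (omega class). They were found by gene symbol among the 48526 genes of the count table. All 10 were present, and all 10 passed the filter on low counts that left 15808 genes for testing. RNA was taken from kidney cortex of C57BL/6 mice and gave 24 libraries, 6 in each of 4 groups, and the substrain and sex are not given in the labels. The 4 groups were diabetic mice given PMX-53, diabetic mice given vehicle, non-diabetic mice given PMX-53 and non-diabetic mice given vehicle. Diabetes was induced at 6 weeks of age with 5 daily injections of streptozotocin at 55 mg/kg, a compound that kills the beta cells of the pancreas, and the non-diabetic mice received sodium citrate instead. PMX-53, a cyclic peptide that inhibits the complement receptor C5aR1, was given at 2 mg/kg in the drinking water, the vehicle being plain drinking water, and the mice were followed for 24 weeks. Streptozotocin given to a whole animal can also act on cells outside the pancreas, and the labels describe no group that separates this from diabetes.

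Conjugation to glutathione makes electrophiles such as lipid aldehydes, epoxides and drug metabolites more soluble and marks them for export. In the kidney the conjugates are trimmed at the brush border of the proximal tubule, where gamma-glutamyl transferase acts first, and are finally released in urine as mercapturates. Transcription of many alpha and mu class genes is known to respond to the factor Nrf2, which binds the antioxidant response element, and to the nuclear receptors CAR and PXR.

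The core of that element (TGAC, then 3 free bases, then GC, on either strand) was looked for in the promoter windows of RefSeq on GRCm38.p6, which run from 250 bases before to 50 bases after a start. Of the 10 genes, 9 were matched to a window by symbol. The core was found in 2 of these 9 (22.2%), against 3781 of the 27025 genes with a window (14%) and 4071 of all 32851 windows (12.4%). The windows of Gsta2, which showed the largest change below, of Gsta3 and of Gstm5 are printed because the first holds no match and the others each hold 1, shown in capitals. Each is written 5′ to 3′ on the strand of its gene. They lie at chr9:78347096-78347395 on the minus strand for Gsta2, at chr1:21240335-21240634 on the plus strand for Gsta3 and at chr3:107895604-107895903 on the plus strand for Gstm5.
Gsta2: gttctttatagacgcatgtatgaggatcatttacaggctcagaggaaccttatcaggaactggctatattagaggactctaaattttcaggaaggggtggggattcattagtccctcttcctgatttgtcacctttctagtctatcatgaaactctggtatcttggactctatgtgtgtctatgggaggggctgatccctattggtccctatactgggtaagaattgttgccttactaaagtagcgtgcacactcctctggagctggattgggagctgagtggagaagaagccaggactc
Gsta3: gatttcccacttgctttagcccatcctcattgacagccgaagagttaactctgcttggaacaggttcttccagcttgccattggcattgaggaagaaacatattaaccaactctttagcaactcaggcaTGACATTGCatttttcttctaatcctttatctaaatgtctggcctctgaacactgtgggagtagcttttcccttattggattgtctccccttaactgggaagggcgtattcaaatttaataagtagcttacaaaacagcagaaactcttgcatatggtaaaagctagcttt
Gstm5: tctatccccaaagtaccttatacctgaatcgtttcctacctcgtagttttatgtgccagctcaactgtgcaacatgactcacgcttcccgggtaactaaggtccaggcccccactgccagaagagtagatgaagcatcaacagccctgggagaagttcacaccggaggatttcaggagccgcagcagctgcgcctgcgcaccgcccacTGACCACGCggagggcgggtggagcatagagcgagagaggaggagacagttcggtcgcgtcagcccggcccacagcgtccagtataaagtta
The match began at base -121 from the start in Gsta3 and at base -42 in Gstm5. A match describes letters in a window and is not evidence of binding. The windows of Gstm1 and Gsto1 held no match either, and elements outside the windows were not looked for. The Gsta2 window lay inside the annotated gene, which spans 78331018 to 78355788 on the minus strand. The upstream end of that span was therefore not covered. Whether the core goes with the changes below was not tested.

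The libraries held 10964992 to 22000895 counts, so that 1 CPM (a count scaled to library size) by these totals rested on about 11 to 22 counts. The CPM given below were further normalized, so these limits are approximate for them. Single counts of the 10 genes ran from 111 to 5875 per library. The share of counts from mitochondrially encoded genes was 25.8% ± 2.56 in diabetic PMX-53, 29.5% ± 2.14 in diabetic vehicle, 22.9% ± 1.51 in non-diabetic PMX-53 and 22.6% ± 1.65 in non-diabetic vehicle libraries (SD, n = 6 each). Ribosomal RNA genes, including those of mitochondria, held 24.3% ± 1.85, 26.9% ± 1.76, 21.5% ± 0.88 and 21.1% ± 1.10 in the same order. The 2 shares overlap, so the first does not measure mitochondrial messenger RNA alone. The diabetic vehicle group stood apart at Nnt, a transhydrogenase gene of mitochondria that is known to differ between C57BL/6 substrains, with 242 to 272 CPM against 101 to 121 CPM in the 18 other libraries. A trait of that group of mice therefore cannot be told apart from diabetes or PMX-53 wherever the diabetic vehicle libraries are used. In the same group, replicate 4 was the lowest library for 5 of the 10 genes, and results that change without it are given with that value. In the non-diabetic vehicle group, replicate 6 was likewise lowest for 5 of the 10 genes and replicate 5 highest for 4. In RNA from whole cortex, a change in the number of cells of 1 type and a change in RNA per cell cannot be told apart. None of the genes on 12 lists of cell type markers was at 0 counts over the 24 libraries, and proximal tubule markers summed to 15374, 14699, 17304 and 17500 CPM in the groups as ordered above.

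**Figure D1:**
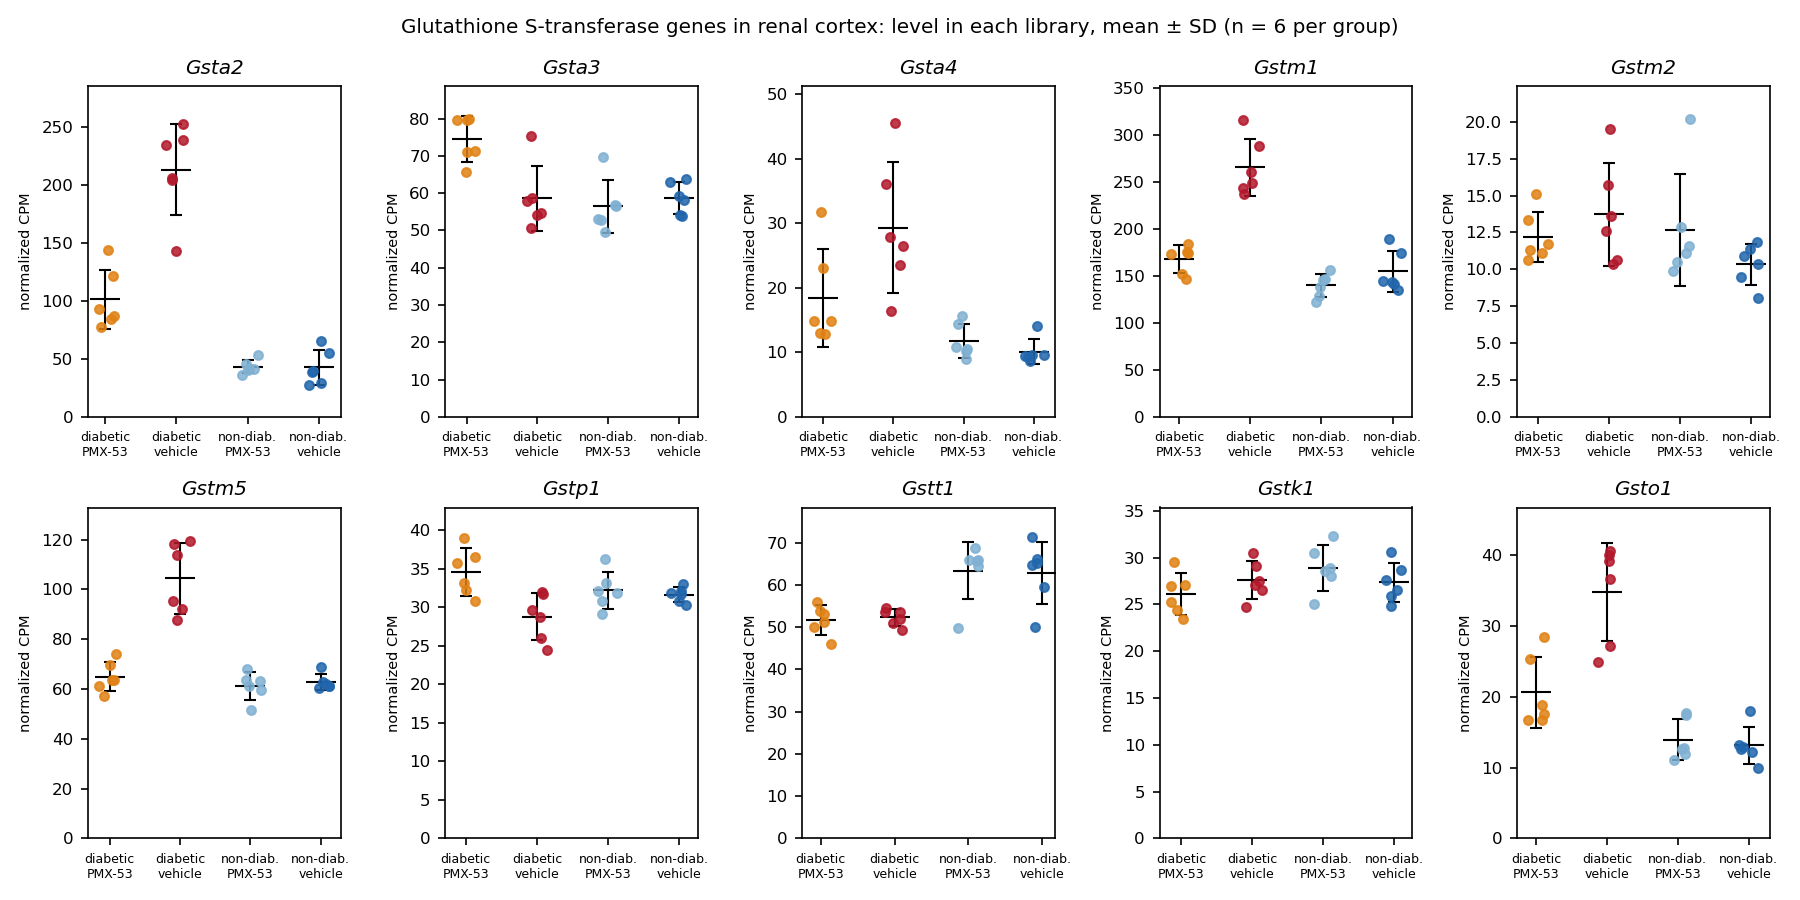
Level of each glutathione S-transferase gene in normalized CPM (y axis, starting at 0) in diabetic PMX-53, diabetic vehicle, non-diabetic PMX-53 and non-diabetic vehicle libraries; points are libraries, and bars are the mean ± SD (n = 6 each). All 6 diabetic vehicle libraries lie above all 6 non-diabetic vehicle libraries for Gsta2, Gsta4, Gstm1, Gstm5 and Gsto1.

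Levels between genes were compared per kilobase of annotated exon, which counts all exons of a gene and so understates a gene whose shorter transcripts are the ones expressed. In diabetic vehicle cortex Gsta2 stood first at 181 ± 33.5 CPM per kb beside Gstm1 at 180 ± 20.7 CPM per kb (SD, n = 6). In non-diabetic vehicle cortex the mu class genes Gstm1 and Gstm5 came first, at 105 ± 14.8 and 49.0 ± 2.44 CPM per kb (SD, n = 6). Gstt1 followed at 41.1 ± 4.76 and Gsta2 at 36.2 ± 12.8 CPM per kb, and the libraries of these neighbours overlapped in range. Gstp1 and Gstk1 lay at 20.4 ± 0.61 and 18.6 ± 1.41 CPM per kb, with means further apart than 1 SD of either but overlapping ranges, and Gsta3 at 13.5 ± 0.98 CPM per kb. Gsta4 at 7.99 ± 1.56, Gsto1 at 6.49 ± 1.31 and Gstm2 at 6.16 ± 0.83 CPM per kb were the lowest, and their ranges overlapped. Summed over the 10 genes, the level was 572 ± 47.3 CPM in diabetic PMX-53, 828 ± 65.3 CPM in diabetic vehicle, 464 ± 20.9 CPM in non-diabetic PMX-53 and 474 ± 43.5 CPM in non-diabetic vehicle cortex.

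**Figure D2:**
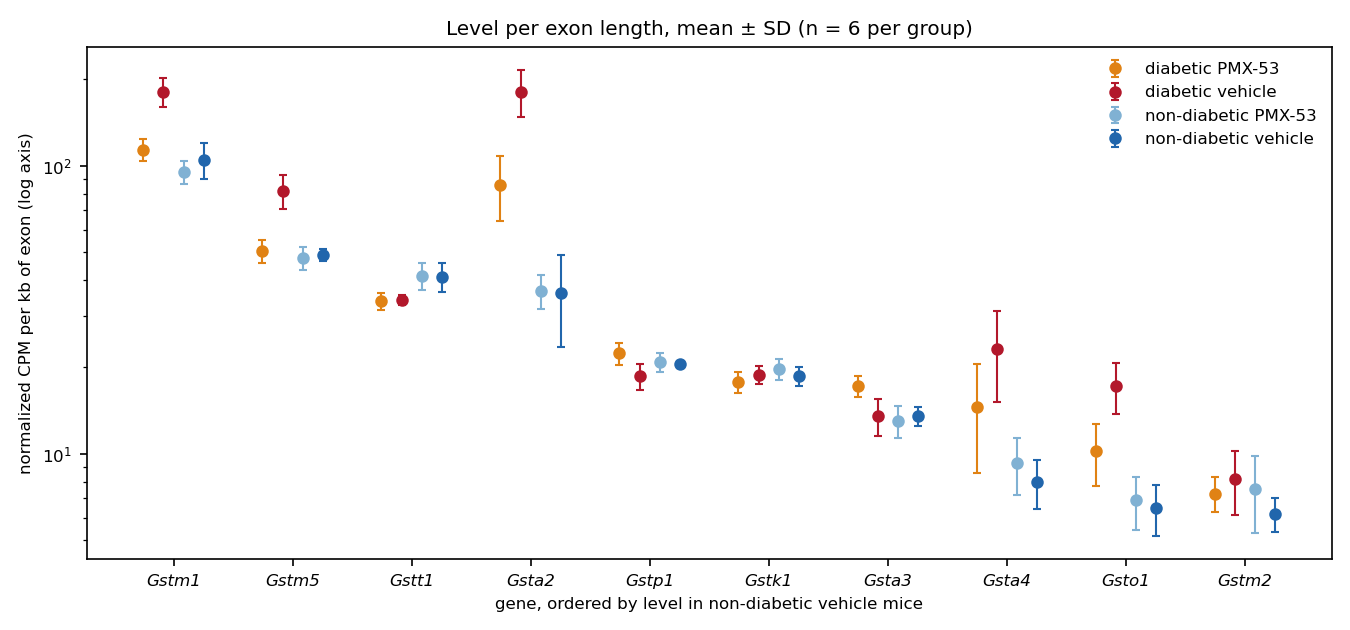
Level per kilobase of exon (y axis, log scale) for the 10 genes, ordered along the x axis by their level in non-diabetic vehicle mice; points are group means and bars ± SD (n = 6 per group). Gsta2 lies first in diabetic vehicle cortex at 181 CPM per kb, and behind Gstm1, Gstm5 and Gstt1 in non-diabetic vehicle cortex at 36.2 CPM per kb.

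To ask what diabetes changed without the inhibitor, diabetic vehicle cortex was compared with non-diabetic vehicle cortex by edgeR's quasi-likelihood test with Benjamini-Hochberg adjustment over all 15808 genes and a threshold of 0.05. Of the 10 genes, 5 were higher (Gsta2, Gsta4, Gstm1, Gstm5 and Gsto1) and 1 was lower (Gstt1) in diabetic vehicle cortex. The background was large, since 40.3% of all tested genes were called, 20.4% higher and 19.9% lower. The ranges of the 2 groups did not overlap for 5 of the 10 genes, against 14.9% of all genes, and the median log2 fold change was 0.57 over the 10 genes and -0.00 over all genes. Of all called genes 50.65% were higher, a share that became 31.15% when libraries were scaled by their totals alone, which moved the median of all genes by about -0.09; the 6 calls named here held under that scaling too.

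Gsta2, an alpha class enzyme that conjugates electrophiles and reduces organic hydroperoxides (chromosome 9, 78331018 to 78355788, minus strand), showed the largest change. Its level had a minimum of 143, a median of 220 and a maximum of 253 CPM in diabetic vehicle libraries, against 27.2, 39.4 and 65.5 CPM in non-diabetic vehicle libraries. The lowest diabetic library, replicate 4, still lay above every non-diabetic one. The level was 5.00-fold higher (log2 fold change 2.32 ± 0.20 SE, adjusted p = 2.97e-08), and 2.41 on the log2 scale without replicate 4. With each library left out in turn, it ran from 2.22 without non-diabetic vehicle replicate 6 to 2.48 without non-diabetic vehicle replicate 5. Reads of Gsta2 may be shared with a near copy: 49.8% of its distinct 50-base transcript stretches also occur in transcripts of other genes, 36% in Gsta1. Gsta1 itself had 0.19 to 2.14 CPM in diabetic vehicle libraries and at most 0.14 CPM in non-diabetic vehicle libraries, and was below the filter.

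Gsta4, on the same chromosome (78182774 to 78209349, plus strand), encodes the alpha enzyme with high activity toward hydroxynonenal, an aldehyde of lipid peroxidation. It measured 16.5, 27.2 and 45.6 CPM (lowest, median, highest) in diabetic vehicle and 8.71, 9.48 and 14.1 CPM in non-diabetic vehicle libraries, with no overlap. The change was 2.92-fold (log2 1.55 ± 0.25, adjusted p = 4.24e-05), and no 50-base stretch of Gsta4 was found in another gene. Gsta3 (chromosome 1, 21240589 to 21265661, plus strand), known in mice as the enzyme that detoxifies aflatoxin epoxide, overlapped fully between these groups. It had 50.7, 56.4 and 75.3 CPM in diabetic vehicle and 53.8, 58.6 and 63.9 CPM in non-diabetic vehicle libraries (log2 -0.00 ± 0.08, adjusted p = 0.984, 95% interval -0.17 to 0.17). The highest of these Gsta3 values, 75.3 CPM, was again that of replicate 4, which was lowest for Gsta2, Gsta4 and Gsto1.

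In the mu class, Gstm1, the most abundant of the 10 in non-diabetic cortex (chromosome 3, 108012255 to 108017973, minus strand), measured 237, 255 and 316 CPM in diabetic vehicle and 135, 144 and 189 CPM in non-diabetic vehicle libraries. All 6 diabetic libraries lay above the non-diabetic range (log2 0.78 ± 0.09, adjusted p = 7.69e-08). Of its 50-base stretches, 18.9% also occur in other genes, 14.1% in Gstm2-ps1, so part of its reads may be shared. Gstm5, the mouse counterpart of human GSTM3 (chromosome 3, 107895821 to 107898686, plus strand), had 87.8, 104 and 120 CPM in diabetic vehicle and 60.3, 61.6 and 68.8 CPM in non-diabetic vehicle libraries. These groups were apart as well (log2 0.74 ± 0.08, adjusted p = 3.80e-08). Part of Gstm5 lies over 4933431E20Rik on the other strand, with 178 shared exon bases, and the strand setting of the counting is not given in the sources used here, so its reads may include some of that gene. Gstm2 (chromosome 3, 107981702 to 107986453, minus strand) measured 10.3, 13.1 and 19.5 CPM in diabetic vehicle and 8.06, 10.7 and 11.8 CPM in non-diabetic vehicle libraries. It shares 5.65% of its stretches with other genes. Its log2 difference of 0.40 ± 0.17 did not pass (adjusted p = 0.0535), but did in DESeq2 at 0.41 (adjusted p = 0.0345), in a fit of the 2 groups alone at 0.40 (adjusted p = 0.0447), and without diabetic vehicle replicate 3 or 6, non-diabetic PMX-53 replicate 6 or non-diabetic vehicle replicate 2 (0.40 to 0.48, adjusted p 0.0152 to 0.0434).

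Gsto1, an omega class enzyme with thioltransferase and dehydroascorbate reductase activity (chromosome 19, 47854970 to 47864790, plus strand), measured 24.9, 37.9 and 40.6 CPM in diabetic vehicle and 9.95, 12.8 and 17.98 CPM in non-diabetic vehicle libraries. The groups did not overlap, and the level was 2.65-fold higher in diabetes (log2 1.40 ± 0.17, adjusted p = 8.10e-07). Gstt1, the theta class enzyme that acts on halogenated alkanes (chromosome 10, 75783813 to 75798584, minus strand), was the 1 gene that was lower. It had 49.3, 52.7 and 54.7 CPM in diabetic vehicle and 50.1, 64.9 and 71.3 CPM in non-diabetic vehicle libraries. The ranges overlapped through 1 low non-diabetic library (log2 -0.26 ± 0.07, adjusted p = 0.00453). Gstp1, the pi class enzyme (chromosome 19, 4035407 to 4037985, minus strand), averaged 28.8 ± 3.04 CPM in diabetic vehicle and 31.6 ± 0.95 CPM in non-diabetic vehicle cortex (SD, n = 6 each). Its log2 difference of -0.14 ± 0.07 did not pass (adjusted p = 0.0988), whereas without diabetic vehicle replicate 4 it was -0.17 and passed (adjusted p = 0.0443), and under total scaling it was -0.24 and passed (adjusted p = 0.0202). Gstp1 shares 33.7% of its 50-base stretches with Gstp2. Gstk1, the kappa enzyme (chromosome 6, 42245935 to 42250447, plus strand), averaged 27.6 ± 2.00 CPM in diabetic vehicle and 27.4 ± 2.07 CPM in non-diabetic vehicle cortex (log2 0.01 ± 0.07, 95% interval -0.13 to 0.15, adjusted p = 0.912).

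**Figure D3:**
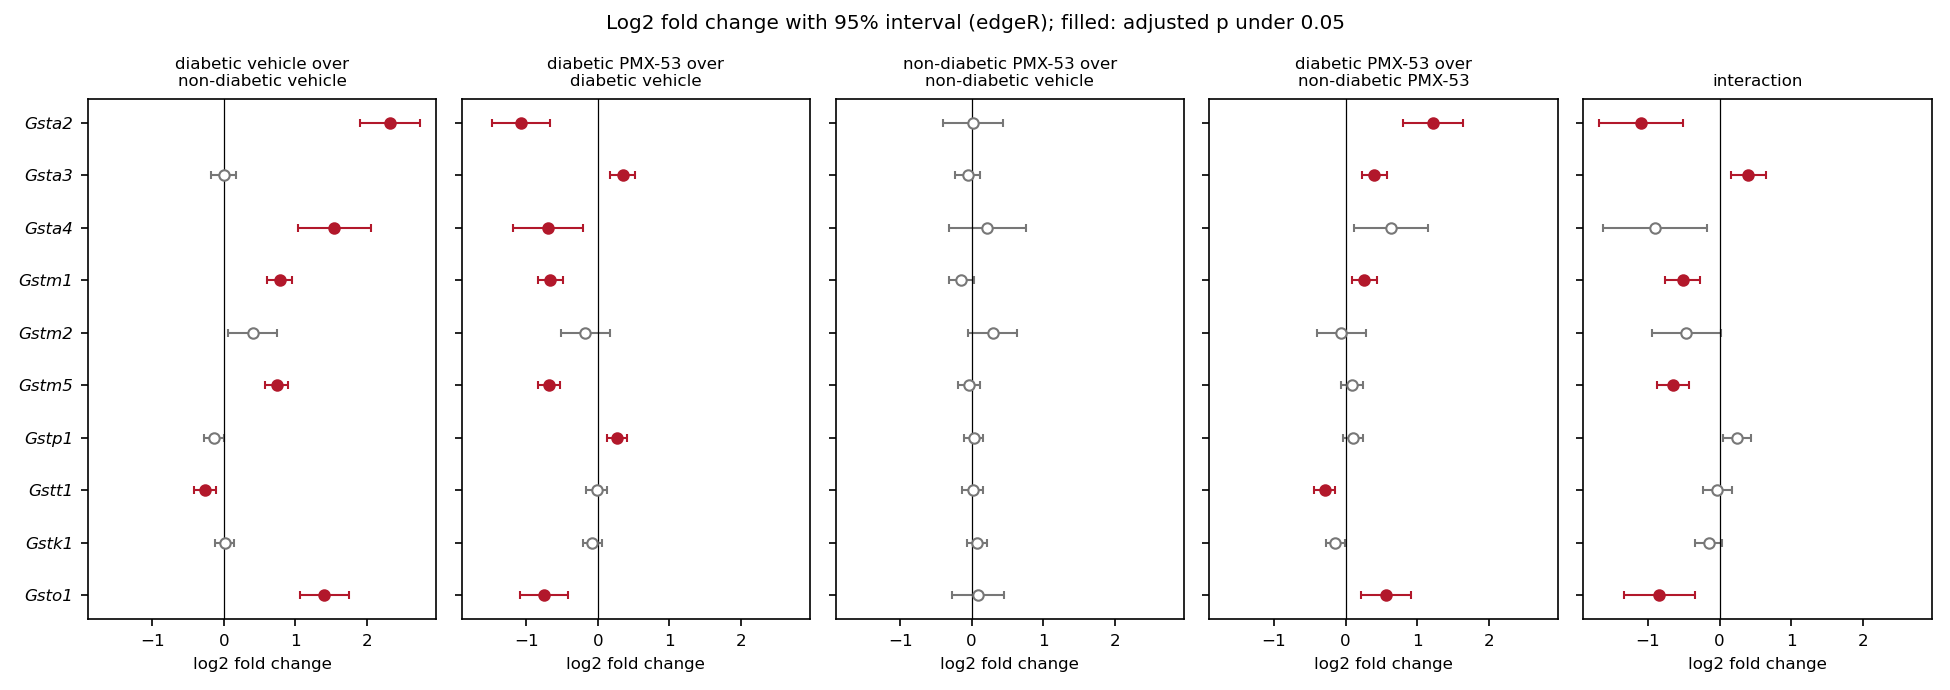
Log2 fold change of each gene (x axis) with its 95% interval in the 5 comparisons from edgeR, the first group of each panel title over the second; filled red points have an adjusted p under 0.05. Gsta2 lies farthest to the right on vehicle at 2.32, and all 10 points in the panel of non-diabetic mice on PMX-53 are open.

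Markers of other cells and cell states moved in this comparison too, where 20.4% of all genes were called higher and 19.9% lower. Of 8 markers of injured tubule 5 were higher, and their summed level was 681 to 2785 CPM in diabetic vehicle against 348 to 627 CPM in non-diabetic vehicle libraries. Spp1, the most abundant of them, was lowest within the diabetic vehicle group in replicate 4, at 516 CPM. Of 7 markers of the last (S3) stretch of proximal tubule 4 were lower, with sums of 857 to 2453 CPM in diabetic vehicle against 4312 to 5049 CPM in non-diabetic vehicle libraries. Of 9 collecting duct markers 8 were higher, with sums of 288 to 413 CPM in diabetic vehicle against 136 to 198 CPM in non-diabetic vehicle libraries. Among the other lists the counts called higher and lower were 3 and 5 of 8 for proximal tubule, 2 and 1 of 5 for thick ascending limb, 3 and 0 of 5 for distal convoluted and connecting tubule, 0 and 0 of 5 for podocytes, and 0 and 2 of 5 for endothelium. They were 0 and 3 of 5 for stroma, 0 and 2 of 3 tested for leukocytes, 0 and 5 of 5 for red blood cells and 2 and 0 of 5 tested for liver. The part of these cells in the levels of the 10 genes was not tested.

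The same question was asked under the inhibitor by comparing diabetic PMX-53 cortex with non-diabetic PMX-53 cortex, so that the log2 fold change itself is not set against diabetic vehicle. The filter, the spread and the adjustment still came from the fit to all 24 libraries. Here 4 of the 10 genes were higher (Gsta2, Gsta3, Gstm1 and Gsto1) and 1 was lower (Gstt1), where 10% of all genes were called, 5.52% higher and 4.52% lower. The ranges were apart for 1 of the 10, Gsta2, against 6.00% of all genes, and the median log2 fold change was 0.18. Of all called genes 54.95% were higher, and 65.67% under total scaling. Gsta2 measured 77.9, 90.1 and 144 CPM in diabetic PMX-53 and 36.4, 41.9 and 53.8 CPM in non-diabetic PMX-53 libraries, a 2.34-fold higher level (log2 1.22 ± 0.20, adjusted p = 4.82e-04). Gsta3 measured 65.6, 75.4 and 80.0 CPM in diabetic PMX-53 and 49.6, 54.9 and 69.8 CPM in non-diabetic PMX-53 libraries. Here Gsta3 was higher in diabetes by 0.40 ± 0.08 on the log2 scale (adjusted p = 0.00264), with overlap at 1 high non-diabetic library.

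Gsto1 had 16.8, 18.2 and 28.4 CPM in diabetic PMX-53 and 11.1, 12.7 and 17.8 CPM in non-diabetic PMX-53 libraries (log2 0.57 ± 0.17, adjusted p = 0.0354). Gstm1 had 146, 174 and 184 CPM in diabetic PMX-53 and 122, 142 and 156 CPM in non-diabetic PMX-53 libraries (log2 0.26 ± 0.09, adjusted p = 0.0475). Both of these calls lay close to the threshold and were lost without the filter on low counts (adjusted p = 0.0872 for Gsto1 and 0.0715 for Gstm1). That fit called 3 of the 10 genes, and 1196 of all genes in place of 1587. The Gsto1 call was also lost under total scaling (adjusted p = 0.0563) and without diabetic PMX-53 replicate 1 or 6 or non-diabetic PMX-53 replicate 1, 2, 3 or 4 (log2 0.45 to 0.54, adjusted p up to 0.0963). The Gstm1 call was lost without any 1 of 14 libraries (log2 0.23 to 0.28, adjusted p up to 0.110), which were diabetic PMX-53 replicates 1, 3, 5 and 6, diabetic vehicle replicates 1 and 5, non-diabetic PMX-53 replicates 2 to 6 and non-diabetic vehicle replicates 1, 3 and 4. Without diabetic PMX-53 replicate 1 or 6 or non-diabetic PMX-53 replicate 2, 3 or 4, 3 of the 10 genes were called. Of all genes these fits called 1134 to 1287, in place of 1587. Gstt1 was lower in diabetes by about the same amount as on vehicle, with 46.0, 52.2 and 55.9 CPM in diabetic PMX-53 and 49.8, 65.8 and 68.7 CPM in non-diabetic PMX-53 libraries (log2 -0.29 ± 0.07, adjusted p = 0.00931). Gsta4 averaged 18.4 ± 7.55 CPM in diabetic PMX-53 and 11.7 ± 2.65 CPM in non-diabetic PMX-53 cortex (SD, n = 6 each), which did not pass (log2 0.64 ± 0.25, adjusted p = 0.109). Gstm5 averaged 64.9 ± 5.93 and 61.2 ± 5.55 CPM in the same 2 groups (log2 0.09 ± 0.08, adjusted p = 0.528), with a 95% interval of -0.07 to 0.24. Marker lists moved less: 1 of 8 injured tubule, 3 of 9 collecting duct, 3 of 5 distal convoluted and connecting tubule, 2 of 5 podocyte and 1 of 5 liver markers were higher, and 2 of 7 S3, 2 of 8 proximal tubule and 1 of 5 endothelial markers were lower. No marker of the other 4 lists was called, and the part of these cells was not tested.

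The effect of the inhibitor in diabetes was addressed by comparing diabetic PMX-53 with diabetic vehicle cortex. Of the 10 genes 5 were lower (Gsta2, Gsta4, Gstm1, Gstm5 and Gsto1) and 2 were higher (Gsta3 and Gstp1) under PMX-53, where 27.3% of all genes were called, 13.9% higher and 13.5% lower. These libraries of diabetic vehicle mice also entered the comparison on vehicle above, so the 2 sets of values are not independent of each other. The ranges were apart for 2 of the 10, Gstm1 and Gstm5, against 8.20% of all genes, and the median log2 fold change was -0.42. Of all called genes 50.73% were higher, and 79.51% under total scaling, which moved the median of all genes by about 0.12; 6 of the 7 calls held under that scaling, and Gsta4 did not pass there (log2 -0.58, adjusted p = 0.0914).

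Gstm1, at 146 to 184 CPM in diabetic PMX-53 and 237 to 316 CPM in diabetic vehicle libraries, fell by 0.66 ± 0.08 on the log2 scale (adjusted p = 3.41e-06). Gstm5, at 57.4 to 73.9 CPM in diabetic PMX-53 and 87.8 to 120 CPM in diabetic vehicle libraries, fell by 0.68 ± 0.08 (adjusted p = 5.07e-07). In both genes every treated library lay below every untreated one. Gsta2 fell by 1.07 ± 0.19 on the log2 scale (adjusted p = 3.63e-04), with an overlap between the highest treated library at 144 CPM and diabetic vehicle replicate 4 at 143 CPM. Gsto1 averaged 20.6 ± 5.00 CPM in diabetic PMX-53 and 34.8 ± 6.93 CPM in diabetic vehicle cortex (SD, n = 6 each) and fell by 0.75 ± 0.16 (adjusted p = 0.00137). Gsta4 averaged 18.4 ± 7.55 CPM in diabetic PMX-53 and 29.3 ± 10.2 CPM in diabetic vehicle cortex, and its fall was the least firm of the 5 (log2 -0.69 ± 0.23, adjusted p = 0.0326). It did not pass without diabetic PMX-53 replicate 2, 3, 4 or 5 or diabetic vehicle replicate 2 or 6 (log2 -0.64 to -0.52, adjusted p up to 0.0988), without the low count filter (adjusted p = 0.0633) or in a fit of the 2 groups alone (adjusted p = 0.110).

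Gsta3 and Gstp1 moved the other way. Gsta3 averaged 74.5 ± 6.10 CPM in diabetic PMX-53 and 58.6 ± 8.66 CPM in diabetic vehicle cortex, a rise of 0.35 ± 0.08 on the log2 scale (adjusted p = 0.00272), and of 0.43 without diabetic vehicle replicate 4. Gstp1 averaged 34.6 ± 3.07 CPM in diabetic PMX-53 and 28.8 ± 3.04 CPM in diabetic vehicle cortex, a rise of 0.27 ± 0.07 (adjusted p = 0.00356). For each of the 2 genes, 6 of 6 treated libraries lay above the mean of the untreated ones. Gstm2, Gstt1 and Gstk1 had log2 differences of -0.17 ± 0.16, -0.02 ± 0.07 and -0.08 ± 0.07, none of which passed, and under total scaling those of Gstt1 and Gstk1 were 0.10 and 0.04. In this comparison 5 of 8 injured tubule markers were lower, and 5 of 5 red blood cell, 4 of 5 podocyte, 3 of 5 stromal, 3 of 5 endothelial, 2 of 5 distal convoluted and connecting tubule and 1 of 3 tested leukocyte markers were higher. Of 7 S3 markers 4 were higher and 2 lower, of 8 proximal tubule markers 4 were higher and 1 lower, and 1 of 5 thick ascending limb, 1 of 9 collecting duct and 2 of 5 tested liver markers were lower. Their part in these results was not tested.

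In mice without diabetes, PMX-53 was compared with vehicle in the same way. None of the 10 genes was called by edgeR, and 0% of all genes were. At an unadjusted p under 0.05 there were 0 of the 10 genes and 1142 of all genes, and DESeq2 also called 0 of the 10. The log2 differences ran from -0.15 ± 0.09 for Gstm1 to 0.29 ± 0.17 for Gstm2, with a median of 0.03. Gsta2 averaged 43.4 ± 5.93 CPM in non-diabetic PMX-53 and 42.7 ± 15.03 CPM in non-diabetic vehicle cortex (SD, n = 6 each), and its 95% interval of -0.40 to 0.44 on the log2 scale does not reach the fall seen in diabetes. The 95% intervals of Gstp1, Gstt1 and Gstk1 stayed within -0.13 to 0.21, and that of Gsta4 ran from -0.32 to 0.75.

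The difference between the PMX-53 effects in diabetic and non-diabetic mice was tested as an interaction, which is also the difference between the effects of diabetes under PMX-53 and on vehicle. It was called for 5 of the 10 genes, 4 negative (Gsta2, Gstm1, Gstm5 and Gsto1) and 1 positive (Gsta3), where 9.42% of all genes were called, 4.66% positive and 4.76% negative. Of all called genes 49.5% were positive, and 79.27% under total scaling. The interaction was -1.10 ± 0.28 for Gsta2 (adjusted p = 0.0176), -0.65 ± 0.11 for Gstm5 (adjusted p = 5.83e-04) and -0.52 ± 0.12 for Gstm1 (adjusted p = 0.00753). For Gsto1 it was -0.84 ± 0.24 (adjusted p = 0.0292) and for Gsta3 0.40 ± 0.12 (adjusted p = 0.0311), both close to the threshold. The Gsto1 call was lost without diabetic PMX-53 replicate 2 or 5, diabetic vehicle replicate 1, non-diabetic PMX-53 replicate 5 or 6 or non-diabetic vehicle replicate 6 (-0.80 to -0.76, adjusted p up to 0.0545). The Gsta3 call was lost without diabetic PMX-53 replicate 1 or 5, diabetic vehicle replicate 1, 2, 5 or 6, non-diabetic PMX-53 replicate 1, 2 or 4 or non-diabetic vehicle replicate 2 (0.36 to 0.40, adjusted p up to 0.0555). The Gsto1 call was also lost under total scaling (-0.73, adjusted p = 0.0665) and without the low count filter (-0.85, adjusted p = 0.0672). Gsta4 did not pass at -0.91 ± 0.35 (adjusted p = 0.109), but did without diabetic vehicle replicate 4 or diabetic PMX-53 replicate 6 (-1.03 and -1.12, adjusted p at most 0.0401). It also passed with limma voom and sample quality weights (-1.05, adjusted p = 0.0284), where 2222 of all genes were called in place of 1489. Gstp1 did not pass at 0.24 ± 0.09 (adjusted p = 0.105), but did under total scaling (0.36, adjusted p = 0.0431) and without diabetic vehicle replicate 4 (0.27, adjusted p = 0.0498). Without that replicate 7 of the 10 genes were called, and 2242 of all genes in place of 1489. Without diabetic PMX-53 replicate 5 or diabetic vehicle replicate 1 there were 3 of the 10, and 1166 and 1106 of all genes. The interaction of Gstt1 was -0.03 ± 0.10 (95% interval -0.24 to 0.18), the gene whose level was lower in diabetes both with and without the inhibitor.

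The 3 mu class genes lie in a cluster of 7 Gstm genes that spans 149 kb of chromosome 3, and their neighbours were read as well. In order the genes are Gstm5, Gstm7, Gstm6, Gstm3, Gstm2, Gstm1 and Gstm4, with Gstm5 alone on the plus strand. In diabetic vehicle over non-diabetic vehicle cortex, Gstm7 was higher by 0.48 ± 0.12 on the log2 scale (adjusted p = 0.00292) and Gstm6 by 0.84 ± 0.23 (adjusted p = 0.00476). Gstm4, at the other end, averaged 6.02 ± 1.22 CPM in diabetic vehicle and 6.69 ± 0.88 CPM in non-diabetic vehicle cortex and did not pass (log2 -0.15 ± 0.13, adjusted p = 0.397). The cluster thus held 4 called genes and 2 that did not pass, where 40.3% of all genes were called. Gstm3, with 23 counts in all 24 libraries, was not tested. Between diabetic groups, PMX-53 over vehicle, Gstm6 fell by 1.36 ± 0.25 (adjusted p = 1.88e-04) and Gstm7 by 0.36 ± 0.12 (adjusted p = 0.0292). Gstm6 rested on 412 counts in all, so its values carry large counting error. Of the 6 tested genes only Gstm1 was called in diabetic PMX-53 over non-diabetic PMX-53 cortex (adjusted p = 0.0475). That call was lost without any 1 of 14 libraries and without the low count filter.

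**Figure D4:**
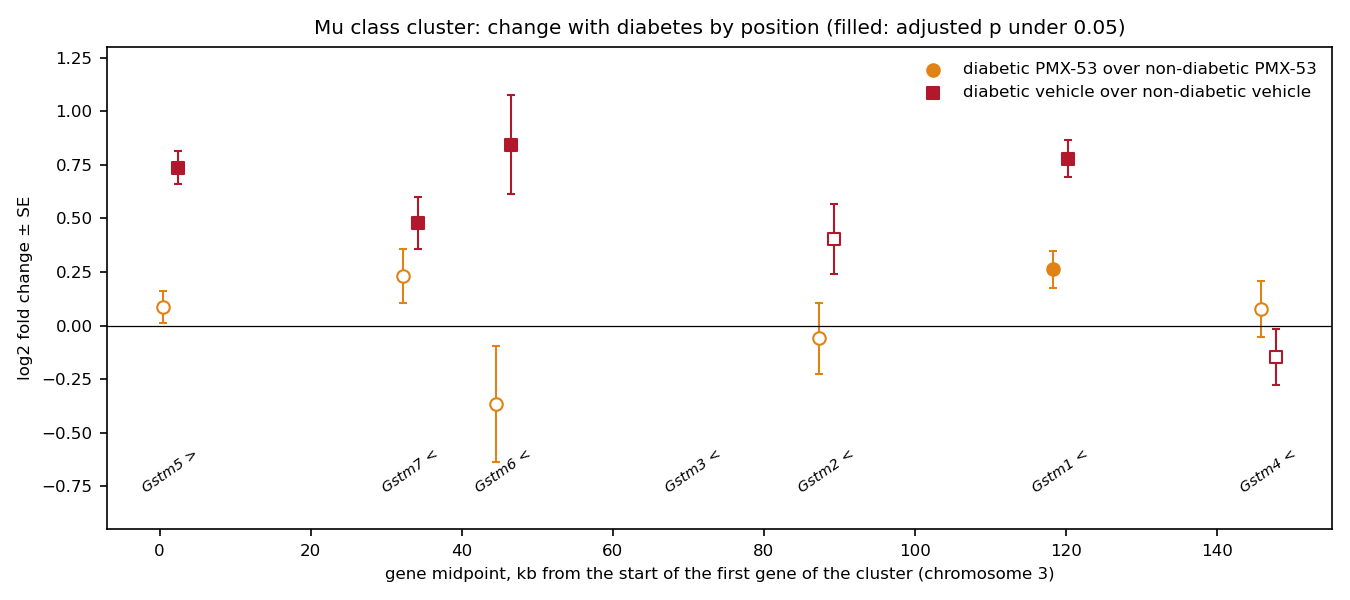
Log2 fold change ± SE (y axis) of the mu class genes by the distance of the gene's midpoint from the start of the first gene of the cluster, in kb (x axis); circles are diabetic PMX-53 over non-diabetic PMX-53, squares diabetic vehicle over non-diabetic vehicle, filled where the adjusted p is under 0.05, and > or < beside a name gives the strand. On vehicle Gstm5, Gstm7, Gstm6 and Gstm1 are filled, and Gstm4 at the right end lies at -0.15.

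Of 18 other genes of the wider family, 16 were in the table and 12 were tested. In diabetic vehicle over non-diabetic vehicle cortex 7 were higher and 2 lower, with a median log2 fold change of 0.36. The microsomal enzymes Mgst1 and Mgst3, membrane proteins unrelated in sequence to the cytosolic ones, were higher by 1.07 ± 0.10 (adjusted p = 6.59e-09) and 1.10 ± 0.10 (adjusted p = 1.70e-08). Mgst3 averaged 28.4 CPM in diabetic PMX-53, 54.3 CPM in diabetic vehicle and 25.3 CPM in non-diabetic vehicle cortex. Gstz1, which isomerizes maleylacetoacetate in tyrosine breakdown, was lower by 0.29 ± 0.07 (adjusted p = 0.00148), and Gstp2, the near copy of Gstp1, by 1.43 ± 0.29 (adjusted p = 2.50e-04) at low levels of 0.62 CPM in diabetic vehicle and 1.66 CPM in non-diabetic vehicle cortex. Diabetic vehicle replicate 4 had 1.47 CPM of Gstp2. With PMX-53, in diabetic PMX-53 over diabetic vehicle cortex, 1 was higher (Gstp2, 1.33 ± 0.29, adjusted p = 0.00111) and 5 were lower, Mgst3 by 0.93 ± 0.10 (adjusted p = 7.11e-07) and Mgst1 by 0.56 ± 0.09 (adjusted p = 9.34e-05). In diabetic PMX-53 over non-diabetic PMX-53 cortex 2 were higher, Mgst1 by 0.54 ± 0.10 (adjusted p = 7.40e-04) and Gstt3 by 0.34 ± 0.07 (adjusted p = 0.00353). In non-diabetic PMX-53 over non-diabetic vehicle cortex 0 were called. The interaction was called for 4 of the 12, 1 positive and 3 negative.

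The genes that supply and recycle glutathione did not move in 1 direction. Of 16 tested, 6 were higher and 4 lower in diabetic vehicle over non-diabetic vehicle cortex, with a median of 0.00. Gclm, the modifier subunit of the enzyme that starts glutathione synthesis, was lower at 151 CPM in diabetic vehicle and 230 CPM in non-diabetic vehicle cortex (log2 -0.61 ± 0.10, adjusted p = 2.00e-05). Ggct, which breaks down gamma-glutamyl peptides, was lower by 0.90 ± 0.15 (adjusted p = 3.55e-05). Glrx, a glutaredoxin that removes glutathione from proteins, was higher by 0.61 ± 0.09 (adjusted p = 5.95e-06), and the lipid peroxidase gene Gpx4 by 0.24 ± 0.05 (adjusted p = 3.31e-04). Of these 16, 1 was higher and 3 were lower in diabetic PMX-53 over diabetic vehicle cortex. In diabetic PMX-53 over non-diabetic PMX-53 cortex 2 were higher and 2 lower, and in non-diabetic PMX-53 over non-diabetic vehicle cortex 0 were called. The interaction was positive for 2, Gclm (0.45 ± 0.14, adjusted p = 0.0382) and the catalytic subunit gene Gclc (0.65 ± 0.20, adjusted p = 0.0431). Gclc averaged 199 CPM in diabetic PMX-53 and 194 CPM in diabetic vehicle cortex (log2 0.04 ± 0.14). In the mice without diabetes it averaged 181 CPM with PMX-53 and 277 CPM on vehicle, and 6 of 6 treated libraries lay below the vehicle mean, but that difference did not pass (log2 -0.61 ± 0.14, adjusted p = 0.327).

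Downstream of conjugation, 18 genes of the mercapturate pathway and of conjugate export were tested, of which 4 were higher and 5 lower in diabetic vehicle over non-diabetic vehicle cortex. Ggt1, the brush border gamma-glutamyl transferase, averaged 535 CPM in diabetic vehicle and 868 CPM in non-diabetic vehicle cortex (log2 -0.70 ± 0.09, adjusted p = 4.59e-07). Acy3, an aminoacylase that deacetylates mercapturates and is also on the S3 marker list, was lower by 1.87 ± 0.26 (adjusted p = 7.69e-06). The conjugate exporters Abcc3 and Abcc1 were higher by 1.84 ± 0.26 (adjusted p = 4.52e-06) and 0.54 ± 0.10 (adjusted p = 7.70e-05). In diabetic PMX-53 over non-diabetic PMX-53 cortex 3 were higher, the exporters Abcc4 (0.62 ± 0.12, adjusted p = 0.00114), Abcc1 (0.38 ± 0.09, adjusted p = 0.0105) and Abcc2 (0.28 ± 0.08, adjusted p = 0.0208), and 2 were lower, among them Ggt1 (-0.35 ± 0.09, adjusted p = 0.00830). In diabetic PMX-53 over diabetic vehicle cortex 2 were higher and 2 lower, and in non-diabetic PMX-53 over non-diabetic vehicle cortex 0 were called. The interaction was called for Abcc3 alone (-1.22 ± 0.38, adjusted p = 0.0446).

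Other genes known as Nrf2 targets were also mixed: of 18 tested, 7 were higher and 5 lower in diabetic vehicle over non-diabetic vehicle cortex, with a median of 0.18. Ephx1, the microsomal epoxide hydrolase, was higher by 2.22 ± 0.14 (adjusted p = 1.56e-10), Cbr1, a carbonyl reductase, by 2.11 ± 0.23 (adjusted p = 5.22e-07) and the transketolase gene Tkt by 0.64 ± 0.07 (adjusted p = 1.34e-07). The malic enzyme gene Me1 was lower by 1.17 ± 0.13 (adjusted p = 2.87e-07), and Nqo1, a common marker of Nrf2 activity, averaged 48.0 CPM in diabetic vehicle and 36.1 CPM in non-diabetic vehicle cortex and did not pass. The Nqo1 ranges overlapped, at 40.3 to 57.1 CPM in diabetic vehicle and 28.6 to 57.9 CPM in non-diabetic vehicle libraries. The highest value was that of non-diabetic vehicle replicate 5. With PMX-53, Nqo1 averaged 46.2 ± 12.7 CPM in diabetic and 30.4 ± 2.75 CPM in non-diabetic cortex (SD). These ranges overlapped too, at 29.1 to 66.4 CPM in diabetic and 26.3 to 34.1 CPM in non-diabetic libraries. In diabetic PMX-53 over non-diabetic PMX-53 cortex 5 were higher and 1 lower, led by Ephx1 (1.47 ± 0.14, adjusted p = 4.02e-07) and Pgd (0.33 ± 0.06, adjusted p = 4.82e-04). Of these 18, 4 were higher and 6 lower in diabetic PMX-53 over diabetic vehicle cortex, and 0 were called in non-diabetic PMX-53 over non-diabetic vehicle cortex. The interaction was called for 5, 1 positive and 4 negative.

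Of 14 genes for regulators of these enzymes, 2 were higher and 5 lower in diabetic vehicle over non-diabetic vehicle cortex. Nr1i3, which encodes the receptor CAR, was higher by 2.22 ± 0.33 (adjusted p = 5.65e-06) at low levels of 2.04 CPM in diabetic vehicle and 0.44 CPM in non-diabetic vehicle cortex. It was also higher in diabetic PMX-53 over non-diabetic PMX-53 cortex (1.87 ± 0.44, adjusted p = 0.00729), the 1 regulator called there, and lower by 1.53 ± 0.30 in diabetic PMX-53 over diabetic vehicle cortex (adjusted p = 4.24e-04). The glucocorticoid receptor gene Nr3c1 was lower on vehicle by 0.57 ± 0.08 (adjusted p = 1.88e-06), Mafg, a partner of Nrf2, by 0.34 ± 0.07 (adjusted p = 2.49e-04) and Hnf4a by 0.35 ± 0.08 (adjusted p = 5.95e-04). Nfe2l2, the gene of Nrf2 itself, had a log2 difference of -0.08 that did not pass. In diabetic PMX-53 over diabetic vehicle cortex 2 regulators were higher and 5 lower, and 0 were called in non-diabetic PMX-53 over non-diabetic vehicle cortex. The interaction was called for Nr3c1 alone (0.42 ± 0.11, adjusted p = 0.0157).

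For the 3 genes with the largest change on vehicle, the most similar genes were found by the root mean square difference of log2 CPM over the 24 libraries, after centring each gene on its own mean. The nearest to Gsta2, whose own SD over the libraries was 1.04, were Acsf2, an acyl-CoA synthetase, at 0.25, Ephx1 at 0.27 and Cbr1 at 0.37. The nearest to Gsta4 (SD 0.70) was Gsto1 at 0.24, another of the 10 on a different chromosome, followed by Prom1, a membrane glycoprotein known from progenitor cells, at 0.28 and Akr1c12 at 0.29. The nearest to Gsto1 (SD 0.63) were Prom1 at 0.17, Lgals3bp at 0.20 and Serpinb6a at 0.22. All 24 libraries share the 4 groups, so likeness here includes the group differences themselves. Diabetic vehicle replicate 4 was the lowest of its group for Gsta2 and for its 3 neighbours, at 27.2 CPM for Cbr1 against a group median of 70.2 CPM. Acsf2 averaged 27.0 ± 3.61 CPM in diabetic PMX-53, 61.1 ± 15.997 CPM in diabetic vehicle, 13.9 ± 2.51 CPM in non-diabetic PMX-53 and 13.01 ± 3.33 CPM in non-diabetic vehicle cortex (SD, n = 6 each).

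**Figure D5:**
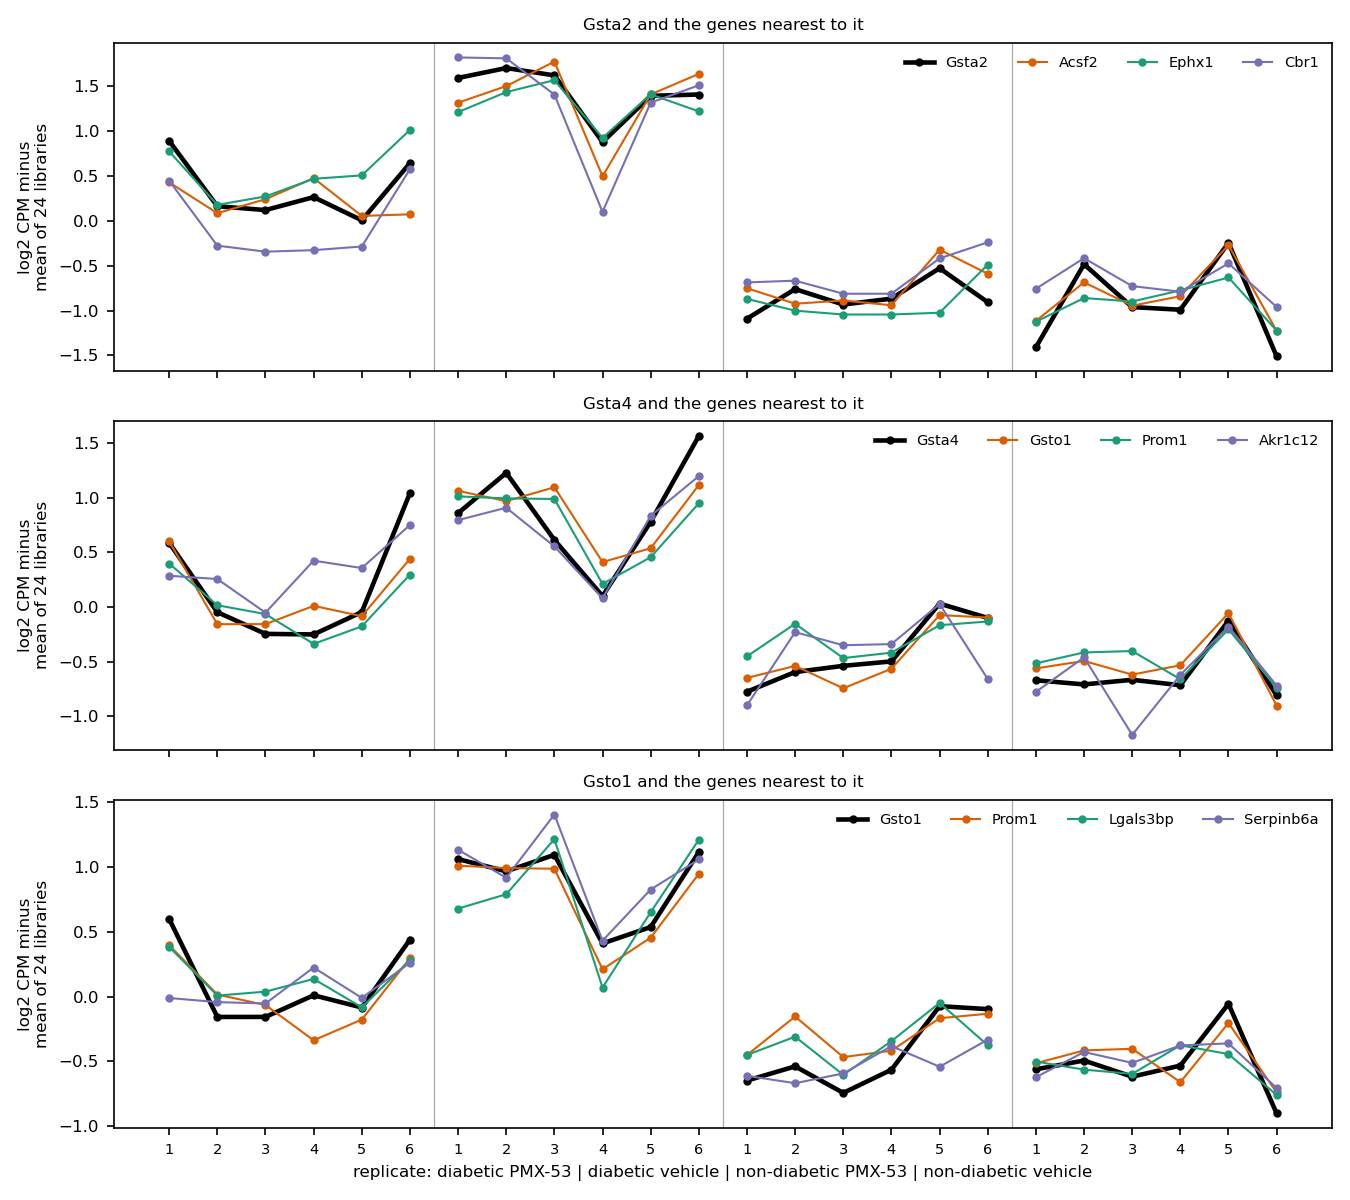
Log2 CPM minus the mean of the 24 libraries (y axis) for Gsta2, Gsta4 and Gsto1 (black) and the 3 genes nearest to each, by library (x axis), in the order diabetic PMX-53, diabetic vehicle, non-diabetic PMX-53 and non-diabetic vehicle; lines only join libraries for reading. Within diabetic vehicle, replicate 4 dips in all 3 panels, and Gsto1 appears among the neighbours of Gsta4 at 0.24.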

How the data were processed

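Ribosomal RNA was depleted from total RNA of renal cortex and directional libraries were made, per the labels' protocols. Reads were processed with bcl2fastq 2.20.0.422 and STAR on GRCm38, per the submitters' processing notes. Which annotation and which tool counted the reads, and whether strand was used, is not given in the sources used here. The deposited table holds whole-number read counts per gene, not normalized by the authors, with 0 entries that name no gene. Within groups, all 60 pairs of libraries differed beyond counting noise (chi-square per degree of freedom at least 5.21). The labels do not name separate animals for each library, so p-values measure the spread between these samples, part of which may be technical.

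The software was R 4.3.3 with DESeq2 1.42.0, limma 3.58.1 and edgeR 4.0.16 for tests, and matplotlib 3.10.9 under Python 3.11.15 for plots. edgeR's default filter left 15808 genes, TMM scaled the libraries, and 1 coefficient per group was fitted by the robust quasi-likelihood method to all 24 libraries. Its F test gave p-values, to which the Benjamini-Hochberg adjustment was applied over all 15808 genes; the threshold was 0.05. The SE is the log2 fold change divided by the square root of F. CPM were normalized by TMM, and log2 CPM used a prior count of 2. The code of the fit was run on counts simulated from its own estimates of spread, which cannot show how well the model describes these data. Gene IDs, positions and exon lengths come from GENCODE M21 on GRCm38, which matched 48058 of the 48526 IDs. The 10 genes and all lists were chosen with earlier results of these data known. Genes outside the 10 were named by a rule: up to 4 of each pathway or regulator list with the smallest p in a comparison, and the 3 genes nearest to each of the 3 genes with the largest change on vehicle. Gsta1, Gstm3, Gstm4, Gstm6, Gstm7, Gstt3, Abcc2, Nqo1, Nfe2l2, Nnt and Spp1 were named for their relation to the 10 genes, their role or their values. Alternatives were another or no scaling, other filters, DESeq2, limma voom, a replicate block, fits without ribosomal RNA and mitochondrially encoded genes, fits of the groups compared alone and each library left out. Replicate numbers were taken from the labels, and no protein sequences were used here.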

Additional observations from a re-analysis of the deposited data

Results flagged for a closer look

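In 6 of the 40 sets of 6 libraries (10 genes in 4 groups), 1 library lay apart from the other 5 by Dixon's test at the 95% level, where chance gives about 1 in 20. Gsta3 was high in diabetic vehicle replicate 4 at 75.3 CPM (nearest 58.7) and in non-diabetic PMX-53 replicate 5 at 69.8 CPM (nearest 56.8). Gsta4 was high in non-diabetic vehicle replicate 5 at 14.1 CPM (nearest 9.63), Gstm2 in non-diabetic PMX-53 replicate 6 at 20.2 CPM (nearest 12.9) and Gstm5 in non-diabetic vehicle replicate 1 at 68.8 CPM (nearest 62.9). Gstt1 was low in non-diabetic PMX-53 replicate 6 at 49.8 CPM (nearest 64.4).

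By edgeR's interaction test, the difference between PMX-53 and vehicle libraries was not the same in diabetic and non-diabetic mice for 5 genes. These were Gsta2 (-1.10), Gsta3 (0.40), Gstm1 (-0.52), Gstm5 (-0.65) and Gsto1 (-0.84), all as log2 fold changes. The Gsta3 call was lost without any 1 of 10 libraries, and the Gsto1 call without any 1 of 6. The Gsto1 call was also lost under total scaling and without the low count filter. All 5 values use the diabetic vehicle libraries, which stood apart at Nnt. The part of that group's own traits in these values was not tested.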

How the results depend on the processing

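Of 50 values (10 genes in 5 comparisons), 23 were called, and 18 of these stayed called under all of the 9 other settings that apply (the interaction has no fit of compared groups alone) and with each of the 24 libraries left out. None of the 23 changed sign. Without the low count filter the number of the 10 genes called in diabetic PMX-53 over non-diabetic PMX-53 was 3 in place of 5, and that of all genes 1196 in place of 1587. With 1 library left out, the number called ran from 6 to 7 in diabetic vehicle over non-diabetic vehicle, 6 to 7 in diabetic PMX-53 over diabetic vehicle, 0 to 0 in non-diabetic PMX-53 over non-diabetic vehicle, 3 to 5 in diabetic PMX-53 over non-diabetic PMX-53 and 3 to 7 in the interaction. In the same order, these fits called 5729 to 6796, 3507 to 4841, 0 to 0, 1134 to 1808 and 1022 to 2242 of all genes. Some values that were never called changed sign. Under total scaling these were Gstk1 in diabetic vehicle over non-diabetic vehicle (-0.085), Gstt1 (0.0961) and Gstk1 (0.0397) in diabetic PMX-53 over diabetic vehicle, and the interaction of Gstt1 (0.0784). With libraries left out they were Gsta3 (-0.0868 to 0.0369) and Gstk1 (-0.0165 to 0.056) in diabetic vehicle over non-diabetic vehicle, and Gstt1 in diabetic PMX-53 over diabetic vehicle (-0.0394 to 0.0153). In non-diabetic PMX-53 over non-diabetic vehicle they were Gsta2 (-0.0763 to 0.185), Gstm5 (-0.0675 to 0.0103), Gstp1 (-0.0102 to 0.0538) and Gstt1 (-0.0442 to 0.0734). The others were Gstm2 in diabetic PMX-53 over non-diabetic PMX-53 (-0.126 to 0.121) and the interaction of Gstt1 (-0.0891 to 0.0285). Why these values changed was not tested. Replicate numbers did not pair the libraries: of 36 pairs with the same number, 3 correlated above 0.1 (range -0.12 to 0.13), and 1 had its own number as best partner. With the replicate block 6, 7, 0, 5 and 5 of the 10 genes were called in the 5 comparisons, and 6221, 4136, 0, 1483 and 1344 of all genes. Depth limits Gstm6, Gsta1, Gstp2 and Nr1i3, whose levels were about 2 CPM or less.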
